A study of Gasterosteus aculeatus with 62 samples.

Results

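The telencephalon of male threespined sticklebacks (Gasterosteus aculeatus) that had met a predator model was compared with that of males that had met empty cages. The comparison rests on the 15 telencephalon libraries labelled for these treatments, of 62 libraries in the series. They came from 8 predator males and 7 control males, each library from 1 male, and the labels name no strain, population, age or genetic change. All males had built a nest in an experimental tank with sand and algae. Predator males were then shown a model trout with odour cues in a cage, control males were shown empty cages, and brains were dissected 1 hour after the trial. The same males gave diencephalon libraries, and 2 further groups of 8 males gave the context used below. Tradeoff males met a caged gravid female together with a model trout, and courtship males met the female alone.

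The telencephalon is the front of the forebrain and in fishes holds the pallium and the subpallium, which take part in learning, fear and social behaviour. The diencephalon lies behind it and holds the thalamus and the hypothalamus. A stickleback male guards its nest alone, and a predator near the nest brings risk to the male and to the brood. A change in transcript level within an hour of such an encounter can reflect new transcription or RNA decay. In dissected tissue, a change in the number of cells of a type and a change in RNA per cell cannot be told apart. Gene symbols do not stand beside the identifiers in the files, and 0 of the 22295 identifiers matched the gene table used here. Genes are therefore given by identifier, and their functions are not described.

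Predator libraries held 26.9 to 42.0 M counts in gene models (median 36.4 M, n = 8) and control libraries 26.2 to 39.0 M (median 36.8 M, n = 7). At least 1 count was found in 19846 to 20246 gene models in predator libraries and in 19963 to 20298 in control libraries. Reads tallied as matching no gene model made up 40.5% to 47.4% of tallied reads in predator libraries and 43.0% to 46.5% in control libraries. The strand setting is not given, so these may include reads on the opposite strand of a gene. None of 7 such library measures passed a test between the groups (exact permutation tests, two-sided, lowest adjusted p = 0.377 over the 7). Without male 42 the lowest adjusted p was 0.427.

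Among the predator and control telencephalon libraries, those of 3 males stood apart in how far they resembled the telencephalon. Resemblance was scored by a regional index on a log2 scale of CPM, read counts scaled to a common library size. It subtracts the average over 500 diencephalon-high genes from the average over 500 telencephalon-high genes. The genes were ranked by the difference between regions in 32 courtship and tradeoff libraries, none of which is a predator or control library. The library of predator male 42 had an index of -1.90, below all 31 diencephalon libraries, which lay at -1.26 to -0.883. The other 7 predator libraries lay at 2.12 to 2.55. Control males 12 and 30 had 1.28 and 0.520, and the other 5 control libraries lay at 2.11 to 2.37. The telencephalon libraries of tradeoff males lay at 1.42 to 2.19 and those of courtship males at 1.70 to 2.49, so values below 2.11 were not confined to controls. The telencephalon-high genes took up 1.37% of the counts of male 42, 6.37% to 7.18% in the other predator males, 5.32% and 4.57% in control males 12 and 30, and 6.42% to 7.35% in the other control males. Diencephalon-high genes took up 8.23% in male 42, 1.54% to 2.05% in the other predator males, 2.80% and 5.23% in control males 12 and 30, and 1.75% to 2.15% in the other controls. Values are therefore given with and without male 42. For predator against control, the main values that change are also given without control males 12 and 30.

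**Figure D1:**
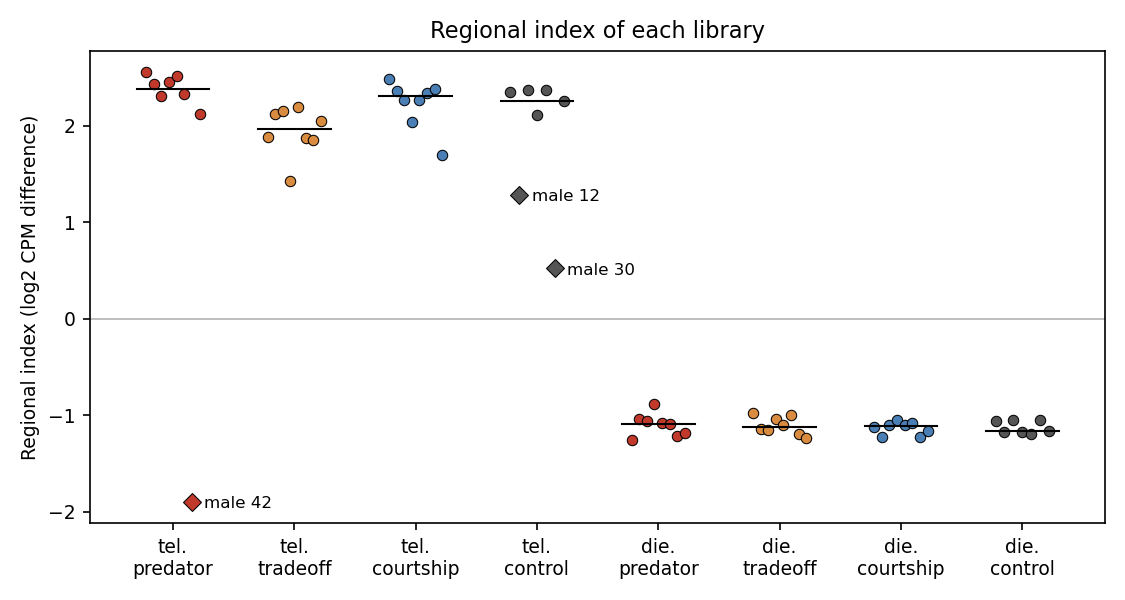
Regional index (y axis, difference in mean log2 CPM) of each library, by region and treatment (x axis; tel., telencephalon; die., diencephalon). Points are libraries, bars are group medians, and diamonds mark predator male 42 at -1.90 and control males 12 and 30 at 1.28 and 0.520, which lie outside the 2.11 to 2.55 of the other predator and control telencephalon libraries.

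The index of predator males averaged 1.85 ± 1.52 (SD, n = 8) and that of control males 1.89 ± 0.719 (SD, n = 7), a difference of -0.0448 (exact permutation test, two-sided, p = 0.985). Without male 42 the predator mean was 2.39 ± 0.148 (n = 7), 0.491 above the controls (exact permutation test, two-sided, p = 0.0571). Without male 42 and control males 12 and 30 the means were 2.39 in predator males and 2.29 ± 0.110 in control males (n = 7 and 5), a difference of 0.0936 (exact permutation test, two-sided, p = 0.253). With male 42 left out, control males 12 and 30 had the lowest indices of the 14 libraries that remained, so the libraries that depart from the rest are then all on the control side.

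With all libraries the threshold was passed by 0 genes, and when male 42 was left out it was passed by 4. With all libraries, 0 of 18714 genes passed an adjusted p of 0.05 (edgeR quasi-likelihood test, 0% called), and 671 (3.59%) had p under 0.05 before adjustment. Of these, 339 were estimated higher (1.81%) and 332 lower (1.77%) in predator males. DESeq2 called 1 gene, voom with sample quality weights called 0, and edgeR on all 62 libraries of both regions called 24, 18 higher and 6 lower. Without male 42, 3 genes rose and 1 fell of 18687 tested (0.0214% called), while DESeq2 called 13, voom called 2 and edgeR on the 61 libraries of both regions called 34. These fits of both regions treat the 2 libraries of a male as independent and share the estimate of spread with the diencephalon. In the telencephalon fit without male 42, an unadjusted p under 0.05 was found for 1578 genes (8.44%), 716 estimated higher (3.83%) and 862 lower (4.61%). Of these 1578 genes, 357 also had an unadjusted p under 0.05 with male 42 included, which is 22.6% of the 1578 and 53.2% of the 671. Without control males 12 and 30 as well, 1 gene rose, 0 fell by edgeR, and p was under 0.05 before adjustment for 535 of 18815 genes (2.84%), of which 326 were among the 1578. With the regional index as a covariate in place of leaving those controls out, 0 of 18687 genes passed by edgeR and 496 (2.65%) had p under 0.05 before adjustment.

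Most fold changes were small and closely bounded. The median absolute log2 fold change was 0.0768 with all libraries and 0.0899 without male 42, and the median standard errors were 0.127 and 0.105. Changes larger than 2-fold fell outside the 95% interval of 84.2% of genes with all libraries and of 84.7% without male 42. For changes larger than 1.5-fold these shares were 70.0% and 71.6%. Fold changes above 4 were estimated for 74 genes with all libraries, 39 higher and 35 lower in predator males, and none of them passed the threshold. Of the 73 of these that were also tested without male 42, 47 were still above 4-fold and 56 above 2-fold. The balance of directions depended on the libraries. Without male 42, 66 genes were above 4-fold, 12 higher and 54 lower. Without control males 12 and 30 as well, 48 were, 34 higher and 14 lower.

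ENSGACG00000010476 rose most clearly. Its telencephalon level in the 7 predator males other than male 42 was 59.7 to 86.9 CPM (median 71.4), and in male 42 it was 4.29 CPM. In control males it was 25.7 to 42.2 CPM (median 38.2, n = 7). All 7 predator males other than male 42 lay above the highest control, and male 42 lay below the lowest. Without male 42, predator males averaged 72.9 ± 8.48 CPM and control males 35.5 ± 6.44 CPM (SD, n = 7 each), a log2 fold change of 1.03 (SE 0.150, 95% interval 0.72 to 1.34, edgeR adjusted p = 0.0028). With male 42 it was 0.86 (SE 0.299, edgeR adjusted p = 1.00). Control male 30, with a low regional index, had the lowest control level, 25.7 CPM, and control male 12 had 39.4 CPM. Without both, controls had 28.5 to 42.2 CPM and the log2 fold change remained past the threshold at 0.99 (SE 0.165, edgeR adjusted p = 0.0447). With the regional index as a covariate it was 0.90 (SE 0.159, edgeR adjusted p = 0.0919).

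ENSGACG00000019095 rose as well. It had 17.8 to 25.7 CPM (median 22.3) in the 7 predator males other than male 42, 3.15 CPM in male 42, and 9.58 to 14.7 CPM (median 13.9, n = 7) in control males. Again the 7 lay above every control, and male 42 lay below. The means without male 42 were 21.9 ± 2.88 CPM in predator males and 13.0 ± 1.89 CPM in control males (SD, n = 7 each), a log2 fold change of 0.75 (SE 0.122, 95% interval 0.50 to 1.00, edgeR adjusted p = 0.00873). With male 42 it was 0.59 (SE 0.228, edgeR adjusted p = 1.00). Without control males 12 and 30, which had 14 and 9.58 CPM, it was 0.70 (SE 0.130, edgeR adjusted p = 0.0867), and with the index as a covariate 0.62 (SE 0.124, edgeR adjusted p = 0.154).

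Both of these genes are among the 500 telencephalon-high genes of the index, with a telencephalon level above the diencephalon level by 1.44 for ENSGACG00000010476 and 1.29 for ENSGACG00000019095 on the log2 scale in courtship and tradeoff males. The third gene that rose is described because it passed, a choice made after its values were seen. No regional difference was ranked for it, since its mean level lay below the limit set for the index. Its mean was 13.5 CPM in telencephalon and 2.49 CPM in diencephalon of courtship males, and 18.7 and 3.47 CPM in tradeoff males. It had 12.6 to 31.1 CPM in the 7 predator males, 1.05 CPM in male 42 and 5.30 to 13.8 CPM in control males. Of the 7 predator males, 6 lay above the highest control. Its log2 fold change without male 42 was 1.14 (SE 0.204, edgeR adjusted p = 0.0227), and with male 42 it was 0.96 (SE 0.336, edgeR adjusted p = 1.00). Without male 42 and control males 12 and 30 it was 1.00 (SE 0.212, edgeR adjusted p = 0.263). Without male 42 and with the index as a covariate it was 0.93 (SE 0.198, edgeR adjusted p = 0.313). Its diencephalon level was also low, 1.99 to 4.70 CPM in predator males and 1.76 to 3.08 CPM in control males. All 3 genes were low in male 42. For the 2 genes that belong to the index, this is part of the low index of that library and not a separate observation. The third gene also had a higher level in telencephalon, so its low level in male 42 cannot be taken as separate either. The part of tissue composition in the differences was not tested beyond the covariate and the left-out libraries.

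**Figure D2:**
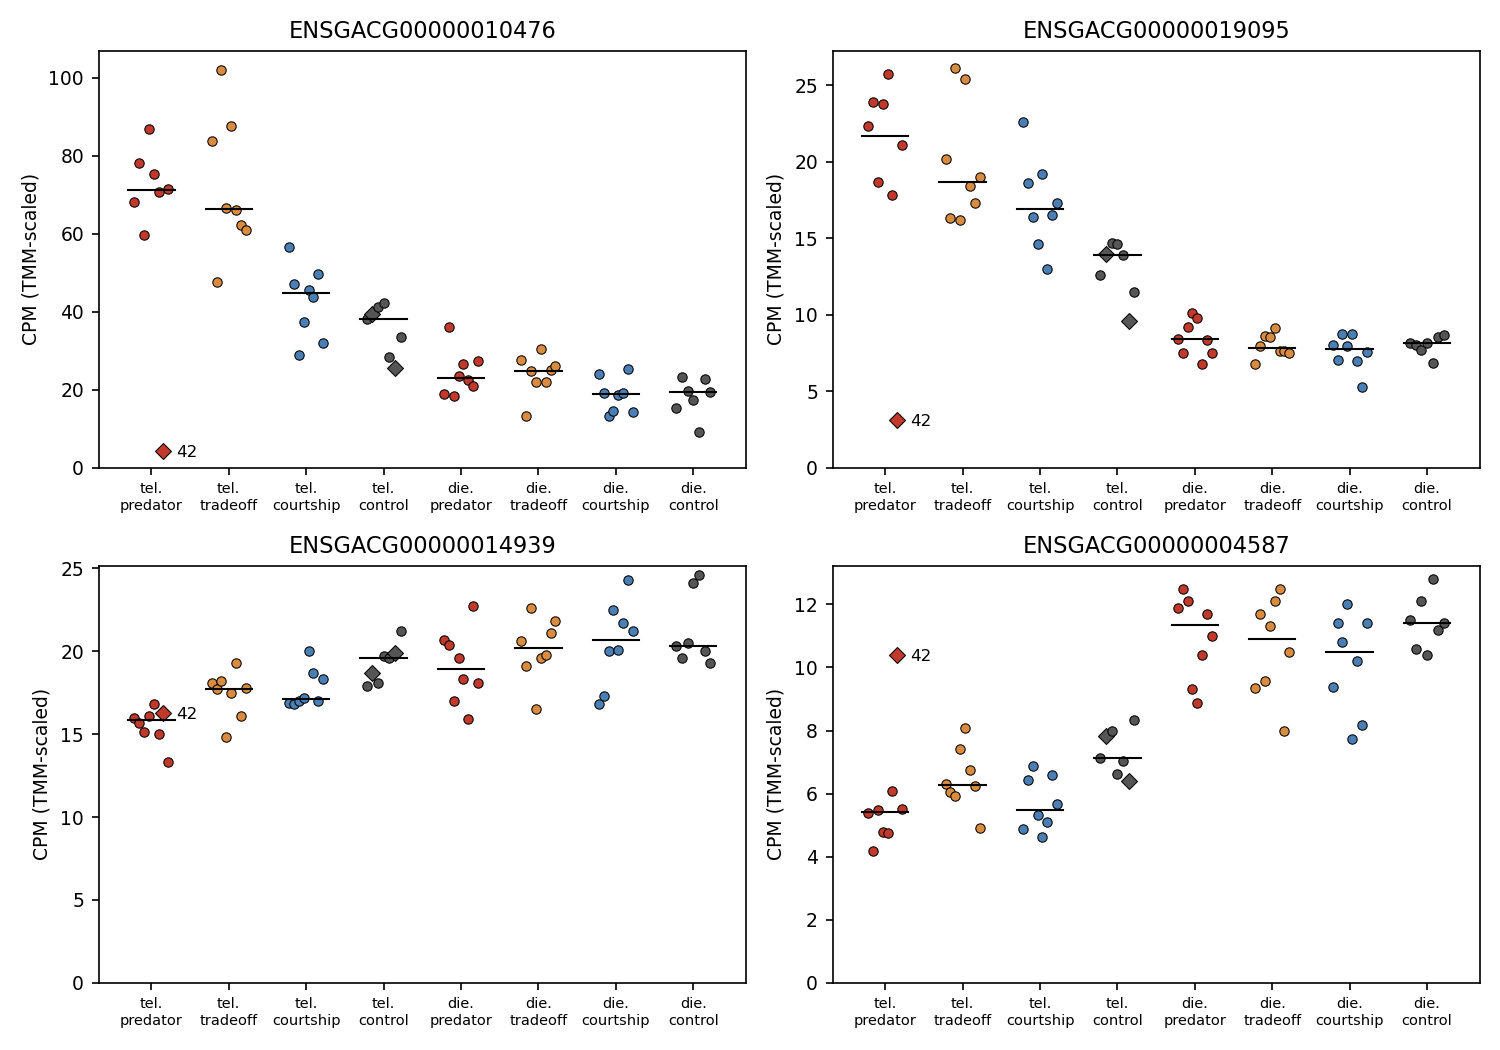
TMM-scaled CPM (y axis, from 0) of 4 genes in every library, by region and treatment (x axis). Points are libraries, bars are medians and diamonds mark predator male 42 and control males 12 and 30. The 7 telencephalon libraries of predator males other than male 42 lie at 59.7 to 86.9 CPM for ENSGACG00000010476 and at 17.8 to 25.7 CPM for ENSGACG00000019095, above all controls, and at 13.3 to 16.8 CPM for ENSGACG00000014939 and 4.19 to 6.07 CPM for ENSGACG00000004587, below all controls.

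ENSGACG00000014939 was lower by a small amount, and lower in all 8 predator males than in every control male. It had 13.3 to 16.8 CPM (median 15.8, n = 8) in predator males, where male 42 had 16.3 CPM, and 17.9 to 21.2 CPM (median 19.6, n = 7) in control males. The groups did not overlap, with or without male 42. This gene, like the others named, was chosen by its p without male 42, so the separation is not separate support. Means were 15.5 ± 1.08 CPM in predator males (SD, n = 8) and 19.3 ± 1.15 CPM in control males (SD, n = 7). The log2 fold change was -0.33 without male 42 (SE 0.0587, 95% interval -0.45 to -0.21, edgeR adjusted p = 0.0227) and -0.31 with it (SE 0.0572, edgeR adjusted p = 0.127). DESeq2 called it with all libraries (adjusted p = 0.00246). It is not among the genes of the index, and its levels in control males 12 and 30 were 18.7 and 19.9 CPM. Its log2 fold change without these and male 42 was -0.33 (SE 0.0659, edgeR adjusted p = 0.202). When the fit without male 42 was adjusted for the index, the fold change was -0.34 and did not pass (SE 0.0653, edgeR adjusted p = 0.134). Of 9 alternative fits without male 42, these included, the gene passed in 4.

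ENSGACG00000004587 had the next smallest p among genes estimated lower and did not pass by edgeR on the telencephalon libraries. It had 4.19 to 6.07 CPM (median 5.38) in the 7 predator males other than male 42, 10.4 CPM in male 42, and 6.40 to 8.33 CPM (median 7.14, n = 7) in control males. The 7 lay below every control, and male 42 lay above every control. The log2 fold change was -0.51 without male 42 (SE 0.109, edgeR adjusted p = 0.148) and -0.33 with it (SE 0.143, edgeR adjusted p = 1.00). It passed in 2 of 9 alternative fits without male 42, by DESeq2 (adjusted p = 0.0164) and by edgeR on the 61 libraries of both regions (adjusted p = 0.0239). In the diencephalon this gene had 8.88 to 12.5 CPM in predator males and 10.4 to 12.8 CPM in control males, and the telencephalon value of male 42 lay within those ranges or at their edge. For the 3 genes that rose, that telencephalon library lay below every predator and control diencephalon library, at 4.29, 3.15 and 1.05 CPM. Those diencephalon libraries had at least 9.23, 6.79 and 1.76 CPM. For the third gene the diencephalon library of courtship male 29 was lower still, at 0.518 CPM. CPM were scaled within each region, so levels of the 2 regions are not on 1 common scale.

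**Figure D3:**
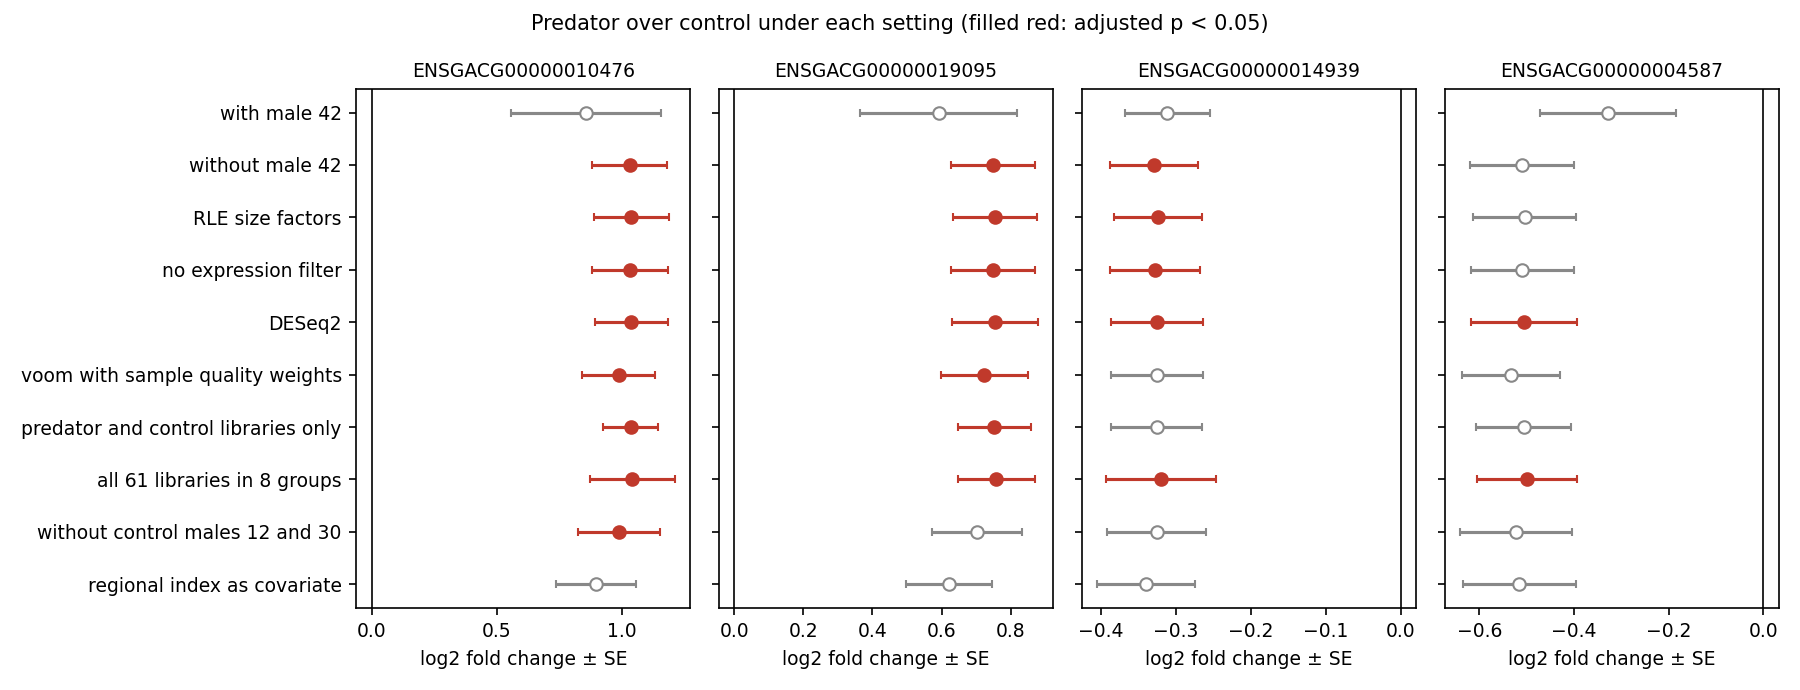
Log2 fold change of predator over control telencephalon (x axis, with SE) for 4 genes under each setting (y axis). The uppermost line includes male 42 and all others leave it out. Filled red points have an adjusted p under 0.05. ENSGACG00000010476 lies between 0.90 and 1.04 and ENSGACG00000014939 between -0.34 and -0.32 in the settings plotted without male 42, while the adjusted p crosses the threshold.

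The fold changes of the called genes moved little when further libraries were left out, while their place relative to the threshold moved more. With male 42 left out, each of the remaining 14 predator and control libraries was left out in turn. ENSGACG00000010476 and ENSGACG00000019095 passed in all 14 fits, with log2 fold changes of 0.97 to 1.08 and 0.69 to 0.80. The third gene that rose passed in 7 of 14 fits (1.04 to 1.25), and ENSGACG00000014939 in 4 of 14 (-0.35 to -0.29). The count of called genes ranged from 2 to 7. It was 7 without control male 15, and 2 without control male 12, 30 or 40 or predator male 33 or 44. Before adjustment, between 792 and 2364 genes had p under 0.05, with 792 without control male 30, 977 without control male 12 and 2364 without control male 26. With male 42 kept in, leaving out any other library called 0 genes and gave 531 to 853 genes at an unadjusted p under 0.05 (edgeR).

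**Figure D4:**
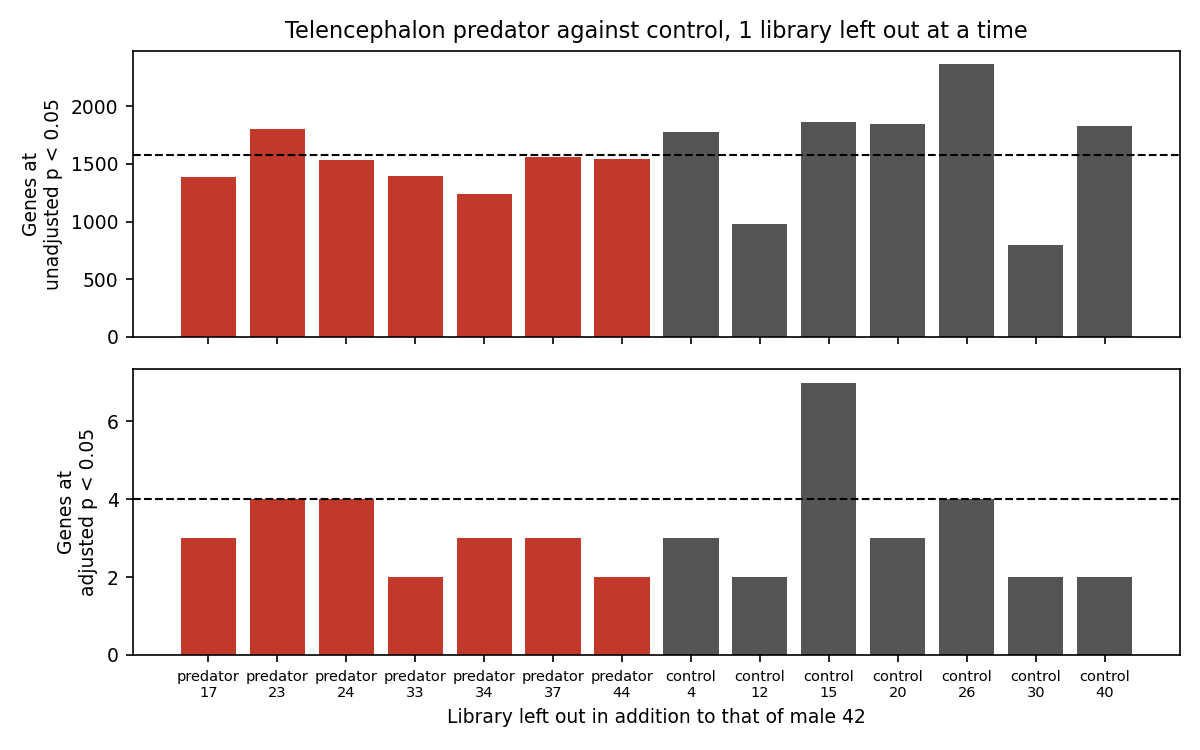
Number of genes at an unadjusted (upper panel) and adjusted (lower panel) p under 0.05 for predator against control telencephalon (y axes, counts from 0) when male 42 and 1 further library, named on the x axis, are left out. Dashed lines mark the counts with only male 42 left out, 1578 and 4. Leaving out control male 30 or 12 gives the lowest upper bars, 792 and 977.

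Groups that did not overlap were rare. With all 15 libraries, 0 genes had every predator library above every control library and 2 had every one below (0.0107% of 18714 genes for both directions together). Without male 42 these were 9 genes higher (0.0481%) and 6 lower (0.0321%), 0.0802% together. With library totals in place of TMM scaling the balance was the other way, 6 higher and 9 lower, and with genes under a mean of 10 CPM left out it was 8 and 3. The 9 had log2 fold changes of 0.10 to 1.03 (median 0.60), and 2 of them passed the test. The 6 had -1.03 to -0.26 (median -0.37), and 1 passed. For all 9 higher genes the library of male 42 lay at or below the highest control, and for 4 of the 6 lower genes it lay at or above the lowest control. This follows from the counts with all 15 libraries and is not a further observation. For a single gene, a share of 0.000583 of the 3432 regroupings of 7 against 7 libraries gives full separation in either direction. The 0.0802% without male 42 is of that order. For 8 against 7 libraries, a share of 0.000155 of the 6435 regroupings gives full separation in 1 given direction. The 2 genes lower with all libraries, 0.0107%, are of that order too. Such counts do not by themselves mark a difference between treatments.

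The lists of region-marking genes moved together when male 42 was left out. Of the 500 telencephalon-high genes, 454 were estimated higher in predator males and 46 lower, with a median log2 fold change of 0.153, against -0.0091 over all genes tested. At an unadjusted p under 0.05, 146 were higher and 0 lower, and 2 passed the adjusted threshold, both named above. Of the 500 diencephalon-high genes, 25 were estimated higher and 475 lower (median -0.301), with 1 higher and 158 lower before adjustment, and 0 passed edgeR's adjusted threshold. The backgrounds over all genes were 3.83% higher and 4.61% lower at an unadjusted p under 0.05. Both lists together held 147 of the 716 higher and 158 of the 862 lower genes.

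Without control males 12 and 30 as well, the medians were 0.0335 for telencephalon-high and -0.0511 for diencephalon-high genes, and 23 and 2 were higher and 4 and 9 lower at an unadjusted p under 0.05 (background 2.84%). With all libraries the medians were 0.0176 and 0.0626. With all libraries except control males 12 and 30, where 646 of 18850 genes (3.43%) had p under 0.05 before adjustment, the signs were the other way round, -0.111 for telencephalon-high genes and 0.293 for diencephalon-high genes. The 3 libraries were singled out by an index made of these same genes, so these shifts restate that choice and are given as a description. The counts also differed with expression level. Among genes with a mean of 100 CPM or more, 243 of 2143 were higher and 17 lower at an unadjusted p under 0.05 without male 42 (12.1% together, against 8.44% of all genes). Among genes at 1 to 10 CPM, 62 of 5296 were higher and 378 lower (8.31% together, close to the share of all genes). Without control males 12 and 30 as well these counts were 40 and 5, and 69 and 89.

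**Figure D5:**
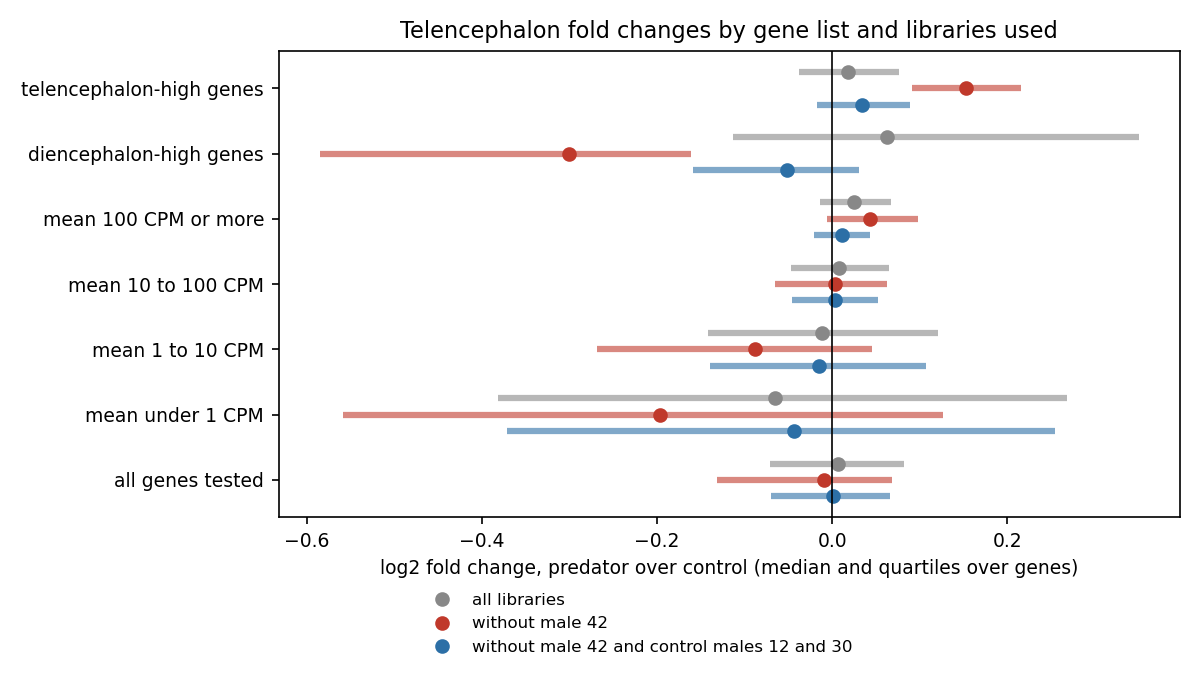
Median (points) and quartiles (bars) over genes of the log2 fold change of predator over control telencephalon (x axis), for the region-marking lists, genes by mean level and all genes (y axis). Grey uses all libraries, red leaves out male 42, and blue leaves out male 42 and control males 12 and 30. The red medians of telencephalon-high and diencephalon-high genes are 0.153 and -0.301, and the blue ones are 0.0335 and -0.0511.

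Gene models named for the Y chromosome, which only males carry, were tested as well. Of 657 listed, 459 were tested without male 42, 15 were higher and 12 lower at an unadjusted p under 0.05 (5.88%, background 8.44%), and 0 passed by edgeR. Their median log2 fold change was 0.00857. Counts of Y models with a close X copy are uncertain, since reads aligned to several places were in no gene's count. Of 833 further models with MAKER names, from an annotation pipeline of that name, 301 were tested, 9 were higher and 7 lower (5.32%), and 0 passed by edgeR. Among models with Ensembl identifiers, 692 were higher and 843 lower of 17927 (8.56%), and these held all 4 called genes.

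Spread between animals differed with the libraries included. The median over genes of the SD of log2 CPM was 0.314 in predator males and 0.210 in control males. It was 0.176 in predator males without male 42 and 0.161 in control males without males 12 and 30. Courtship and tradeoff males had 0.194 and 0.179. The library of male 42 was the highest or the lowest of all 31 telencephalon libraries for 10370 of 18714 genes, the highest for 4885 and the lowest for 5485. Each of the other 30 libraries was so for 446 to 1476 genes, with control male 30 at 1476.

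The same predator cue was also met by males in company of a female, and tradeoff against courtship shares no library with predator against control. The labels do not repeat the odour cues for the tradeoff, so the cue may not be identical. No gene passed there with or without male 42 (0 of 18714 and 0 of 18687, 0% called, with 846 and 1580 at p under 0.05 before adjustment by edgeR, 4.52% and 8.46%). DESeq2 called 1 and 2 genes, and voom 0 and 0. ENSGACG00000010476 had 47.6 to 102 CPM (median 66.4) in tradeoff males and 28.9 to 56.7 CPM (median 44.7) in courtship males (n = 8 each), which overlapped. Its log2 fold change was 0.76 (SE 0.139, edgeR adjusted p = 0.139) without male 42, and DESeq2 called it (adjusted p = 0.00063). With male 42 in the fit it was 0.75 (SE 0.286, edgeR adjusted p = 0.973), and DESeq2 did not call it (adjusted p = 0.78). Male 42 is in neither of these groups, so it acts here only through what the groups share in the fit, such as the estimate of spread. With the regional index as a covariate the fold change was 0.84 without male 42 and passed (edgeR adjusted p = 0.0272). With all libraries it was 0.99 and did not pass (edgeR adjusted p = 0.0567). ENSGACG00000019095 had 16.2 to 26.1 CPM in tradeoff males and 13.0 to 22.6 CPM in courtship males, a log2 fold change of 0.20 (SE 0.113, edgeR adjusted p = 0.614). ENSGACG00000014939 had 14.8 to 19.3 CPM and 16.8 to 20.0 CPM in these groups, a log2 fold change of -0.02 (SE 0.0548, edgeR adjusted p = 0.916) and a 95% interval of -0.14 to 0.09. ENSGACG00000004587 was estimated higher in tradeoff males, with a log2 fold change of 0.19 without male 42 (SE 0.101, edgeR adjusted p = 0.614).

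The difference between the effect of the cue without and with a female was tested for each gene in the same fit without male 42. It was 0.27 for ENSGACG00000010476 (SE 0.203, edgeR adjusted p = 0.534), 0.55 for ENSGACG00000019095 (SE 0.166, edgeR adjusted p = 0.202), -0.31 for ENSGACG00000014939 (SE 0.0803, edgeR adjusted p = 0.202) and -0.70 for ENSGACG00000004587 (SE 0.148, edgeR adjusted p = 0.202). The 4 genes were chosen by their p for predator against control in this fit, which is part of the difference, so their differences may be overstated. None of the 18687 genes passed (edgeR, 0% called), while 2862 (15.3%) had p under 0.05 before adjustment. The difference was not fitted without control males 12 and 30 or with the index as a covariate, so how far the 15.3% rests on those controls was not tested. With male 42 included 0 of 18714 passed by edgeR and 911 had p under 0.05 before adjustment, and the differences for the 4 genes, in the same order, were 0.10, 0.39, -0.29 and -0.51. Across the 716 genes higher in predator males at an unadjusted p under 0.05, 146 were estimated higher in tradeoff than in courtship males (20.4%, against 50.1% of all genes). Of the 862 lower genes, 184 were lower there (21.3%, against 49.9%). Without control males 12 and 30 as well these shares were 50.8% of 295 and 42.9% of 240, against 49.8% and 50.2% of all genes. With male 42 included they were 50.1% of 339 and 34.3% of 332, against 49.4% and 50.6%. The regional index of tradeoff males, 1.42 to 2.19, lay mostly below that of courtship males, 1.70 to 2.49, and its part in these shares was not tested.

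Against the same control males, ENSGACG00000010476 was also higher in tradeoff males, with a log2 fold change of 1.02 (SE 0.146, edgeR adjusted p = 0.00222) without male 42, and 0.26 (SE 0.144, edgeR adjusted p = 0.886) in courtship males. ENSGACG00000019095 had 0.61 (SE 0.118, edgeR adjusted p = 0.109) in tradeoff males and 0.41 (SE 0.118, edgeR adjusted p = 0.856) in courtship males. The 2 lower genes were also estimated below the controls in courtship males, which met no predator model. ENSGACG00000004587 had -0.37 there (SE 0.104, edgeR adjusted p = 0.856) and ENSGACG00000014939 had -0.13 (SE 0.0566, edgeR adjusted p = 0.886). In tradeoff males they had -0.19 (SE 0.104) and -0.15 (SE 0.0566), in the same order. Over all genes 1 passed for tradeoff against control (0.00535% called) and 0 for courtship against control (0% called, 1009 at p under 0.05 before adjustment by edgeR). Both comparisons share the control libraries with predator against control, so the values stand side by side and are not independent. Those libraries include control males 12 and 30, and neither comparison was fitted without them or with the index as a covariate.

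In the diencephalon of the same males 0 of 18942 genes passed between predator and control (0% called, 603 or 3.18% at p under 0.05 before adjustment by edgeR, 0 called by DESeq2). ENSGACG00000010476 had 18.3 to 36.0 CPM (median 23.0, n = 8) in predator males and 9.23 to 23.2 CPM (median 19.4, n = 7) in control males, which overlapped, with a log2 fold change of 0.42 (SE 0.180, edgeR adjusted p = 1.00). The diencephalon library of male 42 was within the range of its group in regional index. ENSGACG00000019095 had 6.79 to 10.1 CPM and 6.88 to 8.71 CPM in predator and control diencephalon, a log2 fold change of 0.08 (SE 0.0955, edgeR adjusted p = 1.00). ENSGACG00000014939 had -0.15 (SE 0.0816, edgeR adjusted p = 1.00).

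The telencephalon effect minus the diencephalon effect passed for 0 of 19321 genes with all libraries (366 or 1.89% at p under 0.05 before adjustment by edgeR, 2 called by DESeq2) and for 1 of 19294 without the telencephalon library of male 42 (0.00518% called, 728 or 3.77% at p under 0.05 before adjustment). With the male as a replicate block 0 passed without male 42 (edgeR, 1485 at an unadjusted p under 0.05). The median SE over genes was 0.114 with the block and 0.149 without it. The values for single genes are from the fit without the block, which does not pair the regions of a male. In that fit, without male 42, the difference was 0.62 for ENSGACG00000010476 (SE 0.239, edgeR adjusted p = 1.00), 0.68 for ENSGACG00000019095 (SE 0.155, edgeR adjusted p = 0.423) and -0.17 for ENSGACG00000014939 (SE 0.101, edgeR adjusted p = 1.00). For none of these genes did the effect differ between the regions past the threshold. They were chosen by their p for predator against control in telencephalon without male 42, so these differences may be overstated.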

How the data were processed

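For each library the authors deposited whole-number read counts by gene model, and the submitters' processing notes name STAR and HTSeq. The sources used here give no version, genome build, annotation or strand setting, so reads of overlapping antisense genes may not be separated. The tally lines stayed out of library sizes and tests. Of 22295 models, 20805 have Ensembl identifiers, 657 are named for the Y chromosome and 833 are other MAKER models.

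All 31 telencephalon libraries in 4 groups were fitted with edgeR 4.0.16 in R 4.3.3 (filterByExpr with a minimum count of 10 and a minimum total of 15, TMM, robust quasi-likelihood test, Benjamini-Hochberg adjustment over all tested genes, threshold 0.05). The fit was repeated without male 42. SEs were derived from the log2 fold change and the F statistic. CPM are TMM-scaled within a region. The regional index used a prior count of 2 and genes with a mean log2 CPM above 3. Alternatives used DESeq2 1.42.0, voom in limma 3.58.1, RLE size factors, no expression filter, other sets of libraries, the index as a covariate and left-out libraries. Among 49 pairs of telencephalon libraries of the same treatment, predator or control, the lowest chi-square per degree of freedom was 15.9, so none of these pairs agreed within sampling noise. Pairs across treatments or regions were not compared. Males were numbered in the labels, and same-numbered libraries of both regions come from 1 animal. Deviations from group means correlated at 0.198 to 0.543 within the 15 males and at -0.0242 on average between males.

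Genes named are the 2 higher and 2 lower with the smallest p without male 42. The members, the lists and the choice of libraries to leave out were made with earlier results of these data known. Gene lists written by symbol could not be matched to the identifiers and were not used. The fits were tested on simulated counts.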

Additional observations from a re-analysis of the deposited data

Results flagged for a closer look

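Among 24 sets of values checked for a library standing apart, 5 had such a library, and in all 5 it was the telencephalon library of predator male 42. The check was set so that about 1 in 20 sets would show one by chance, a rate not measured here. The named genes were chosen by their p with male 42 left out, so that rate does not hold for their values. The 5 values come from 1 library and are not separate findings. The regional index of that library was -1.90, while the other predator males had at least 2.12. Its 10 most abundant genes took up 11.8% of its counts, against 8.09% to 9.83% in the other predator males. It had 4.29 CPM of ENSGACG00000010476, 3.15 CPM of ENSGACG00000019095 and 10.4 CPM of ENSGACG00000004587, each outside the range of the other predator males and of the controls. Its depth, 36.5 M counts, was within the range of its group, and its level of ENSGACG00000014939, 16.3 CPM, lay among the other predator males. Control males 12 and 30, with regional indices of 1.28 and 0.520, did not meet this check, which looks for a single distant value.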

How the results depend on the processing

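With all libraries, predator against control called 0 genes under RLE size factors, no expression filter, voom, the index covariate, predator and control libraries only, and without control males 12 and 30, and 1 by DESeq2 and 24 in the fit of all 62 libraries. Leaving out 1 library at a time gave 0 to 4, the 4 only without male 42. Without male 42 the 4 calls became 13 by DESeq2, 34 in the fit of 61 libraries (both held the 4), 2 by voom, 2 with predator and control libraries only, 1 without control males 12 and 30 (with or without the other treatments in the fit), 0 with the index covariate, and 2 to 7 leaving out 1 further library. RLE size factors and no filter called the same 4. Tradeoff against courtship gave 1 call by DESeq2 with all libraries and, without male 42, 2 by DESeq2, 1 with the index covariate and 1 without control males 12 and 30. The difference between regions gave 2 calls by DESeq2 with all libraries and, without male 42, 2 by DESeq2, and 0 in the replicate block fit that pairs both regions of a male, against 1 without the block. With all libraries the block left 0, and diencephalon calls stayed at 0. Genes whose groups do not overlap numbered 5 (0.0267% of 18714) by library totals with all libraries. They numbered 37 (0.198% of 18714) without male 42 and control males 12 and 30. Those libraries allow only 792 regroupings, against 3432 for 7 against 7. Full separation by regrouping alone is thus more frequent there, and the 37 cannot be read as a rise. No named gene that passed in either setting changed sign. The causes of these shifts were not tested. The index and the 7 library measures kept their side of the threshold under each alternative run. The fits of predator and control libraries only without control males 12 and 30, and the comparison of ranges without those controls, were chosen after seeing the data.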
